A study of Prunus sibirica with 6 samples.

Results

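The genes described here are those for calcium channels, calcium pumps, glutamate receptors, mechanosensitive channels and annexins in frosted flowers of Prunus sibirica, the Siberian apricot. They are the 166 genes, of 31889 in the deposited table, whose protein description names a cyclic nucleotide-gated channel, a glutamate receptor, a calcium-transporting ATPase, a CSC1-like protein, an annexin, a TPC-type vacuolar calcium channel or a mechanosensitive channel. Their levels were compared between clone 338, which resists frost strongly, and clone 28, which resists it weakly, with 3 RNA libraries each, from floral organs at the blooming stage that had met natural frost at -4 °C. All 6 libraries are from frosted flowers, and each degree of resistance is represented by 1 clone, so that resistance and any other difference between these clones cannot be told apart. Whether a clone's 3 libraries stand for different trees is not stated in the labels, and the spread behind every p-value may therefore be technical.

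Plant cells hold free calcium very low in the cytosol and let it in for short times when cold, touch, osmotic stress or wounding is sensed. Channels of the plasma membrane and of the vacuole open the way in, and ATP-driven pumps in the plasma membrane, the endoplasmic reticulum and other membranes carry calcium back out. The rise is read by calcium sensors and kinases, and in pollen tubes a steep calcium gradient at the tip, fed by such channels, guides growth. Roles given below for single genes are those of the similarly named Arabidopsis genes unless another species is named, and the names rest on similarity of sequence. Members are written in the Arabidopsis short forms CNGC (cyclic nucleotide-gated channel), GLR (glutamate receptor) and MSL (mechanosensitive channel of the small conductance type). ACA and ECA stand for calcium ATPases, in the genes named below those described as plasma membrane and endoplasmic reticulum types.

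The 166 members comprised 62 CNGC genes, 45 GLR genes, 28 calcium ATPase genes, 10 CSC1-like genes, 10 annexin genes, 8 MSL genes, 2 Piezo genes and 1 TPC gene. Many were silent or low. In all libraries 28 had 0 reads, and 58 more had reads but missed the filter. It asked for at least 1 FPKM (fragments per kilobase, scaled for library size, the deposited unit) in at least 3 of the 6 libraries. The 80 members that passed the filter were 22 CNGC, 14 GLR, 16 calcium ATPase, 10 CSC1-like, 9 annexin, 7 MSL, 1 Piezo and 1 TPC gene. None of the 86 others had a mean above 0.714 FPKM. Not all of them were near silent in both clones. A gene described as CNGC13 (PARG27763), named after its values were seen, had 162 reads in the weak and 21 in the strong clone. Its means were 1.27 ± 0.744 and 0.0904 ± 0.0695 FPKM (SD, n = 3), without overlap. The recovered reads per library numbered 16367632 to 18866306, and 1 read of a gene of 1 kilobase was worth 0.0372 to 0.0965 FPKM. The library sizes that these steps imply ran from 19440490 to 26876148 in the strong and from 10364304 to 20795157 in the weak libraries. The deposited scaling thus did not follow the recovered reads. Summed FPKM was 464129 to 591204 in the strong and 580337 to 1217398 in the weak libraries.

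The libraries differed beyond their group. Over 70 tested genes with a description naming pollen, an anther-specific protein or LAT52, the mean log2(FPKM + 1) was 4.85 to 5.45 in the strong libraries and 5.46 to 5.86 in the weak libraries (exact permutation p = 0.1, two-sided, the smallest that 3 against 3 allows). The summed level of that list of 125 genes, of which 22 were at 0 in all libraries, was 9380 to 18468 FPKM in the strong and 16636 to 52784 FPKM in the weak libraries. For 43 photosystem and chlorophyll-binding genes, a sign of green tissue, the mean was 5.61 to 5.71 in the strong and 4.17 to 5.29 in the weak libraries (exact permutation p = 0.1), and 5 of the 53 listed were at 0 throughout. For 7 tested genes whose description names a stigma, a style or an S-RNase the mean was 2.27 to 3.32 and 2.79 to 4.33 (exact permutation p = 0.2), with 15 of the 26 listed at 0. Weak library 3 lay nearer to the mean of the strong libraries than to weak libraries 1 and 2 in 73.9% of all tested genes and in 55 of the 80 tested members (68.8%). In bulk flowers, fewer cells of a type and less RNA per cell cannot be told apart.

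Between the clones, 20 of the 80 tested members differed, 12 higher and 8 lower in the strong clone (limma, Benjamini-Hochberg adjusted p under 0.05 over all 16462 tested genes). That is 25.0% of the members, against 15.3% over all genes tested (7.53% up and 7.78% down in the strong clone). With libraries rescaled to equal sums, which moved the median of all genes to 0.74, 13 members were higher and 4 lower. Strong and weak levels were fully separated in 38 members (47.5%), against 45.4% of all genes. The median log2 difference, strong minus weak on the log2(FPKM + 1) scale, was 0.22 over the 80 members and 0.05 over all genes. With the member that has 0 reads in the weak clone set at its lower bound, the members' median was again 0.22.

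The count changed with the libraries included, and a fit that leaves a library out also has fewer values to estimate the spread from. Leaving out a strong library left 4 members past the threshold each time, leaving out weak library 1 or 2 left 5 and 4, and leaving out weak library 3 gave 61. Of all 16462 tested genes, 2520 passed with all libraries, 166 to 353 without a strong library, and 610 and 395 without weak library 1 or 2. Without weak library 3 it was 12075, so the rise there was not particular to the members. All 20 passed without weak library 3, and 4 passed whichever library was left out. These were the glutamate receptor PARG27489, the channel PARG11782, the annexin PARG16608 and the glutamate receptor PARG07792. With the pollen list mean as a covariate, 2 members passed, PARG27489 and PARG11782, among 63 genes in all.

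**Figure D1:**
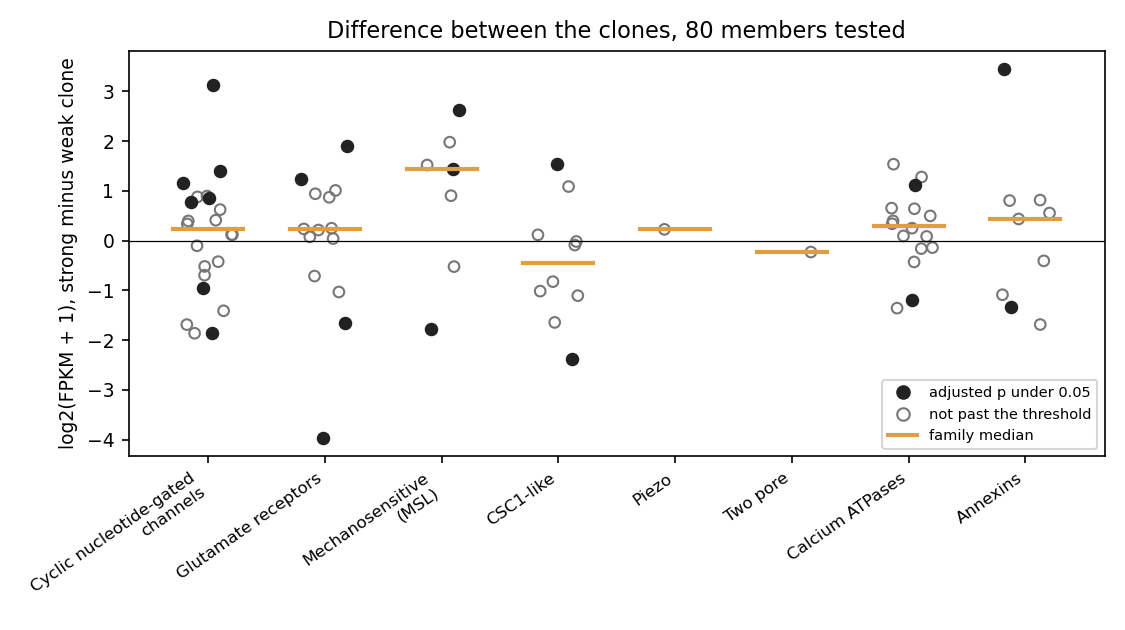
Difference between the clones in log2(FPKM + 1), strong minus weak, for the 80 tested members by family, with filled points past the adjusted threshold and a bar at each family's median. Calls stand on both sides of 0 in the CNGC, GLR, MSL, CSC1-like, calcium ATPase and annexin families, and the lowest point is the glutamate receptor PARG27489 at -3.96.

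**Figure D2:**
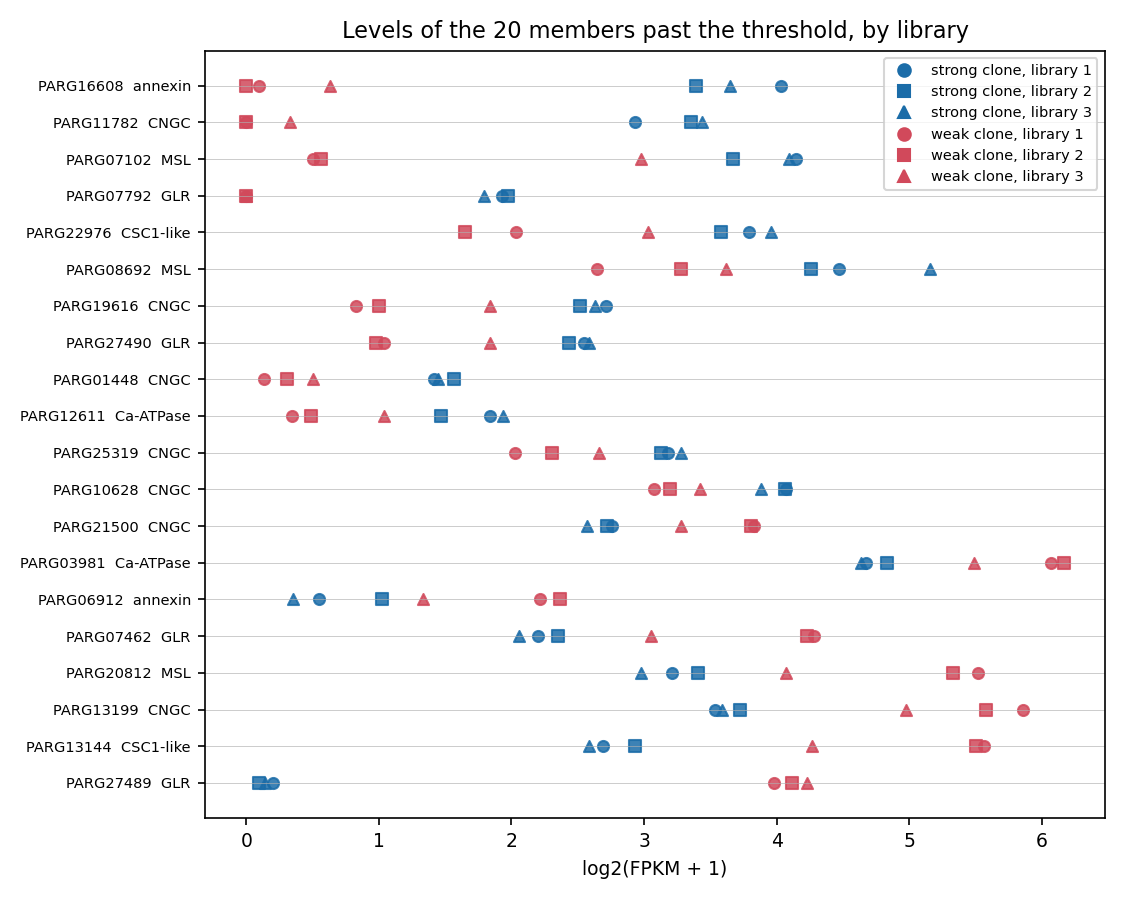
Level of each of the 20 members past the threshold in every library, as log2(FPKM + 1), with circles, squares and triangles for libraries 1, 2 and 3 of each clone. The libraries of the clones do not overlap in any of the 20, and weak library 3 lies between the other weak libraries and the strong mean in 18. The 20 were picked by these same values, so the lack of overlap is no added evidence. It is also seen in 45.4% of all tested genes.

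Among the cyclic nucleotide-gated channels, cation channels opened by cyclic nucleotides and regulated by calmodulin, 5 of 22 rose and 2 fell in the strong relative to the weak clone, with a family median of 0.23. That is 31.8% of the tested family, against 15.3% of all genes. PARG11782, described as CNGC1 (linkage group 3, 19986077 to 19992182, plus strand), was at 6.62, 9.24 and 9.84 FPKM in strong libraries 1, 2 and 3, and at 0, 0 and 0.254 FPKM in weak libraries 1, 2 and 3. The gene was thus close to silent in the weak clone, where all of its 13 reads were in library 3, against 1467 reads in the strong clone. Its log2 difference was 3.13 ± 0.23 (SE, limma adjusted p = 0.00226), and its mean level was 101 times higher in the strong clone.

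CNGC2 and CNGC4 take part together in calcium entry during immune responses, and 1 gene described as each was called, in opposite directions. A CNGC2 gene (PARG13199, linkage group 4, 2939124 to 2942598) was at 10.6, 12.2 and 11.04 FPKM in the strong libraries and at 57.0, 46.7 and 30.5 FPKM in the weak libraries. It was lower in each strong library than in any weak one, by 1.86 ± 0.26 on the log2 scale (a difference of -1.86, adjusted p = 0.0111), and the weak mean was 3.97 times the strong mean. A CNGC4 gene (PARG10628, linkage group 3) was at 15.8, 15.7 and 13.7 FPKM against 7.41, 8.18 and 9.71 FPKM, a difference of 0.77 ± 0.19 (adjusted p = 0.0429). The second CNGC4 gene (PARG01974, linkage group 1), chosen here after its values were seen, stood at 16.2 ± 2.83 against 8.31 ± 2.06 FPKM (SD, n = 3), did not overlap either, and missed the threshold (0.90 ± 0.24, adjusted p = 0.0514). The second CNGC2 gene (PARG19275, linkage group 5), likewise chosen after its values were seen, was below the filter at 0.239 ± 0.144 against 0.263 ± 0.268 FPKM, with overlap. The tests were made gene by gene, and the difference between the changes of PARG13199 and PARG10628 was not tested.

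Further CNGC genes also passed the threshold. A gene described as CNGC8 (PARG01448, linkage group 1) was at 1.67, 1.96 and 1.72 FPKM in the strong and 0.0979, 0.234 and 0.415 FPKM in the weak libraries (1.16 ± 0.19, adjusted p = 0.0155). A CNGC3 gene (PARG19616, linkage group 5) was at 5.54, 4.71 and 5.18 against 0.776, 0.999 and 2.57 FPKM (1.40 ± 0.30, adjusted p = 0.0332). In both, every strong library stood above every weak one, and weak library 3 was the highest of the weak clone. A CNGC20 gene (PARG25319, linkage group 7), named for a channel with a part in immunity and cell death, was at 8.09, 7.75 and 8.73 against 3.08, 3.95 and 5.33 FPKM (0.87 ± 0.23, adjusted p = 0.0498). This call lies at the threshold and was lost with equal sums (adjusted p = 0.0550), without the trend (0.0503), with voom (0.0510), with a pseudocount of 0.1 (0.0585) and without the filter (0.0690). The other tested CNGC20 gene (PARG13618), named after its values were seen, overlapped between the clones and did not pass (0.41 ± 0.28, limma adjusted p = 0.273). A long gene model described as CNGC1 (PARG21500, linkage group 6, 11046 bases) ran the other way, at 5.76, 5.59 and 4.95 against 13.2, 13.0 and 8.69 FPKM (-0.95 ± 0.23, adjusted p = 0.0399). That model also carries a domain of a cyclase-associated protein, so its reads may come from more than the channel. With libraries rescaled to equal sums its difference was -0.21 and did not pass (adjusted p = 0.504), nor did it without the filter (0.0514).

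CNGC18, the channel that pollen tubes need for tip growth, was the most abundant of all members. It (PARG12974, linkage group 4, 1697188 to 1701028) was at 110, 168 and 70.3 FPKM in the strong libraries and at 539, 499 and 164 FPKM in the weak libraries. Weak libraries 1 and 2 stood above all others, while weak library 3 lay just under strong library 2, and the gene did not pass the test (-1.69 ± 0.56, adjusted p = 0.0739). It held 28.9% to 44.3% of the summed FPKM of all CNGC genes in the strong libraries and 46.4% to 63.4% in the weak libraries. CNGC16 (PARG24670), which keeps pollen fertile under heat and drought, and a second CNGC8 gene (PARG15221) were chosen for mention after their values were seen. They stood at 14.5 ± 7.61 against 57.7 ± 29.5 FPKM (adjusted p = 0.0603) and at 16.6 ± 8.18 against 48.1 ± 24.4 FPKM (adjusted p = 0.0924). The CNGC8 gene PARG01448, given above, and the pollen channel MSL8 (PARG07102), given below, ran the other way, with differences of 1.16 and 2.62. The pollen list was lower in the strong clone, as were CNGC18, CNGC16 and the second CNGC8 gene. With its mean as a covariate, the difference of CNGC18 was -0.18 (limma adjusted p = 0.9985). In that fit CNGC16 and the second CNGC8 gene had adjusted p = 0.978 and 0.9985. The list mean differed between the clones too, so its part in these levels and that of the clone cannot be told apart.

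**Figure D3:**
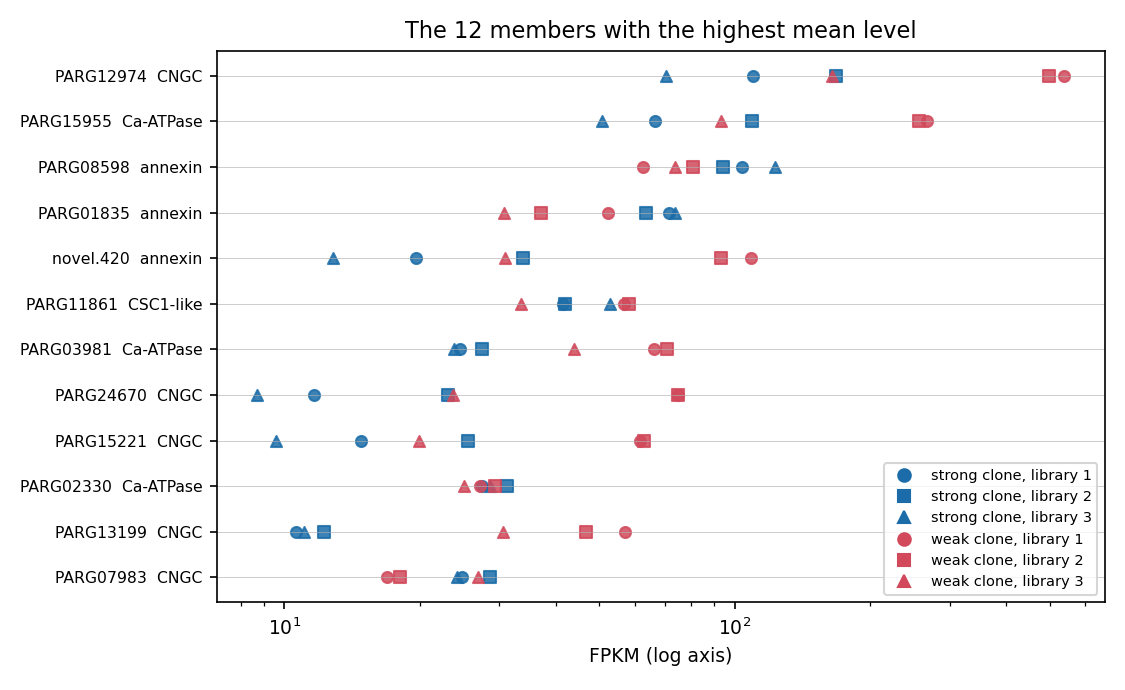
FPKM on a log axis of the 12 members with the highest mean over all libraries, with libraries marked as circles, squares and triangles. CNGC18 (PARG12974) and the pump ACA9 (PARG15955) stand highest, in weak libraries 1 and 2, while annexin D5 (PARG08598) is higher in all strong libraries than in any weak one.

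The glutamate receptors, plant relatives of the ligand-gated channels of animal synapses, open to amino acids and carry wound and touch signals over distance. Relative to the weak clone, 2 of 14 tested genes rose and 2 fell, and 10 had a positive difference (median 0.22). The calls made up 28.6% of the tested family, against 15.3% of all genes. The largest difference of any member was that of a GLR3.6 gene (PARG27489, linkage group 8, 17080055 to 17083466, plus strand), named for a receptor that relays wound signals between leaves. It was at 0.152, 0.0711 and 0.103 FPKM in the strong libraries and at 14.8, 16.3 and 17.7 FPKM in the weak libraries. The receptor was thus close to silent in the strong clone, with 22 reads against 2024, and weak library 3 was not intermediate but the highest. The log2 difference was -3.96 ± 0.19 (adjusted p = 0.00128).

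PARG27489 lies in an array of 5 GLR genes (17029669 to 17089682), with 566 bases between it and the next receptor gene. That neighbour (PARG27490, 17084033 to 17089682), also described as GLR3.6, was at 4.85, 4.41 and 5.01 FPKM in the strong and 1.05, 0.967 and 2.58 FPKM in the weak libraries. It differed by 1.24 ± 0.28 (adjusted p = 0.0368; 0.0503 with a pseudocount of 0.1 and 0.0530 without the filter), so that adjoining genes of the same description were called in opposite directions. A further GLR3.6 gene of the array (PARG27486), chosen after its values were seen, was at 13.2, 10.04 and 14.9 against 4.83, 5.24 and 8.61 FPKM and missed the threshold (0.94 ± 0.27, adjusted p = 0.0592). A GLR3.6 gene outside the array (PARG27868), likewise chosen after its values were seen, did not pass (-1.03 ± 0.46, limma adjusted p = 0.122). Summed over the 5 genes, the array gave 18.5, 14.9 and 20.2 FPKM in the strong and 20.7, 22.6 and 29.0 FPKM in the weak libraries. On the deposited scale the array's sum thus differed less between the clones than PARG27489, PARG27490 or PARG27486 did alone. The sum was not tested and not rescaled to equal sums. Summed FPKM over all genes was 464129 to 591204 in the strong and 580337 to 1217398 in the weak libraries. RSEM and Bowtie2 are named in the submitters' processing notes without their settings, and how alike the sequences of these genes are was not examined, so reads may have been split among them. A difference in sequence or gene copies between the clones cannot be told apart from expression.

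A GLR2.6 gene (PARG07792, linkage group 2, 32359557 to 32362840) was at 2.80, 2.92 and 2.46 FPKM in strong libraries 1, 2 and 3, while no weak library held a read of it (0 reads). Against a floor of 3 reads over the weak libraries it was at least 93.1-fold higher in the strong clone, a bound for counting error only. The fitted difference was 1.90 ± 0.17 (adjusted p = 0.00384). It was the sole member with at least 1 FPKM in every library of a clone and under 0.1 FPKM in every library of the other. Its neighbour described as GLR2.9 (PARG07791), 807 bases away, also had 0 reads in the weak clone, with 32 reads in the strong clone.

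A GLR2.8 gene (PARG07462, linkage group 2, 30445771 to 30452104) was at 3.58, 4.10 and 3.16 FPKM in the strong and 18.4, 17.7 and 7.30 FPKM in the weak libraries (-1.65 ± 0.36, adjusted p = 0.0338). Weak library 3 was intermediate. The model also carries a domain of a transcription initiation factor, so its reads may come from more than the receptor. It heads an array of 11 GLR2 genes over 70.7 kilobases, of which 4 passed the filter and 1 was called. With equal sums the difference of PARG07462 was -0.92 (adjusted p = 0.0547). Other tested GLR2.8 genes, named after their values were seen, did not pass. PARG07596 was at 1.01 ± 0.37 (limma adjusted p = 0.0884), and PARG07467 and PARG07466 were at 0.24 and 0.08. GLR3.4 (PARG13732), the GLR gene with the highest mean, was at 10.9, 12.6 and 11.1 against 23.3, 21.9 and 14.5 FPKM, did not overlap between the clones and missed the threshold (-0.71 ± 0.23, adjusted p = 0.0718), while with equal sums the sign turned, to 0.07.

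The mechanosensitive channels of the MSL type open under membrane tension and release ions from cells, plastids or mitochondria. Of 7 tested genes 2 were higher and 1 lower, 42.9% against the 15.3% of all genes. The family median was 1.45, or 2.16 with equal sums, where that of all genes was 0.05 and 0.74. MSL8 (PARG07102, linkage group 2, 28228767 to 28231794), a channel that protects pollen during rehydration, was at 16.7, 11.8 and 16.1 FPKM in the strong libraries and at 0.419, 0.480 and 6.89 FPKM in the weak libraries. It was therefore higher in the strong clone, opposite to the pollen list mean, and weak library 3 stood above the mean of weak libraries 1 and 2 by 2.45 on the log2 scale. The log2 difference was 2.62 ± 0.67 (adjusted p = 0.0474; 0.0649 with a pseudocount of 0.1 and 0.0602 without the filter). MSL6 (PARG20812, linkage group 6, 5913351 to 5918855), whose role is not well described, ran the other way, at 8.24, 9.63 and 6.86 against 44.7, 39.2 and 15.8 FPKM (-1.77 ± 0.40, adjusted p = 0.0368). MSL3 (PARG08692, linkage group 2, 38503905 to 38510097), which sits in the plastid envelope and keeps plastids in shape, was at 21.1, 18.1 and 34.7 against 5.26, 8.69 and 11.3 FPKM (1.45 ± 0.35, adjusted p = 0.0414; 0.0505 without the filter). The photosynthesis list was higher in the strong libraries too, and its part in the MSL3 difference was not tested. The other plastid channel, MSL2 (PARG01957), named after its values were seen, stood at 14.6 ± 1.12 against 22.2 ± 6.81 FPKM (-0.52 ± 0.27, adjusted p = 0.167).

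CSC1-like proteins are relatives of CSC1, a calcium-permeable channel opened by hyperosmotic stress. All 10 passed the filter, 7 had a negative difference and the median was -0.46, or 0.32 with equal sums. A gene described as HYP1 (PARG13144, linkage group 4, 2595298 to 2602513) was at 5.44, 6.65 and 4.99 FPKM in the strong and 46.2, 44.4 and 18.2 FPKM in the weak libraries (-2.38 ± 0.38, adjusted p = 0.0147). Its neighbour of the same description (PARG13145), named after its values were seen, had means of 12.8 ± 1.30 and 11.9 ± 3.06 FPKM, short of the threshold (0.12 ± 0.23, adjusted p = 0.699). In the other direction, a gene described as the CSC1-like protein of the Arabidopsis locus At1g32090 (PARG22976, linkage group 7) was at 12.9, 10.99 and 14.5 against 3.09, 2.14 and 7.16 FPKM (1.54 ± 0.37, adjusted p = 0.0422; 0.0531 with a pseudocount of 0.1 and 0.0546 without the filter). ERD4 (PARG11861), named for its early response to dehydration, was the most abundant of the family. Its levels were 41.4, 42.1 and 52.7 FPKM in the strong and 56.7, 58.1 and 33.6 FPKM in the weak libraries, and the groups overlapped (-0.09 ± 0.27, adjusted p = 0.803).

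The TPC gene, for the slow vacuolar channel of the calcium store, was not called. It (PARG14649, linkage group 4) was at 10.9, 11.1 and 11.8 FPKM in the strong and 13.1, 13.7 and 13.3 FPKM in the weak libraries (-0.23 ± 0.16, adjusted p = 0.290). The strong libraries all lay below the weak ones, by less than the test could call, and with equal sums the sign turned, to 0.54. The tested Piezo gene (PARG20022, linkage group 6), for a large tension-gated channel, was at 2.21, 1.95 and 2.31 against 1.30, 1.84 and 1.99 FPKM (0.23 ± 0.20, adjusted p = 0.372).

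Of the 16 calcium ATPases tested, 1 was higher and 1 lower in the strong clone, 12.5% against the 15.3% of all genes, and 11 had a positive difference (median 0.30). ACA10 (PARG03981, linkage group 2, 4856561 to 4875929), a plasma membrane pump of growth and immunity, was at 24.6, 27.5 and 23.8 FPKM in the strong and 66.1, 70.8 and 43.8 FPKM in the weak libraries. The groups were well apart as deposited (-1.19 ± 0.24, adjusted p = 0.0265), but with equal sums the difference was -0.38 and did not pass (adjusted p = 0.152). A gene described as ACA13 (PARG12611, linkage group 3) was at 2.57, 1.76 and 2.82 against 0.271, 0.402 and 1.05 FPKM (1.12 ± 0.26, adjusted p = 0.0386; 0.0544 with a pseudocount of 0.1 and 0.0510 with quantile scaling). ACA9 (PARG15955, linkage group 4), the plasma membrane pump of pollen, was the most abundant pump. It was at 66.4, 109 and 50.7 FPKM in the strong and 267, 256 and 93.0 FPKM in the weak libraries, with the same order of libraries among the weak clone as CNGC18, and the groups overlapped (-1.36 ± 0.50, adjusted p = 0.0870). An endoplasmic reticulum pump, ECA1 (PARG02330), named after its values were seen, stood at 29.1 ± 1.94 against 27.2 ± 2.14 FPKM (0.09 ± 0.17, adjusted p = 0.665).

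Annexins are cytosolic proteins that bind membrane lipids when calcium rises, and some carry calcium currents themselves. Of 9 tested genes 1 was higher and 1 lower, 22.2% against the 15.3% of all genes (median 0.44). A gene described as annexin-like RJ4, a name from a strawberry fruit protein (PARG16608, linkage group 5, 3320387 to 3323184, minus strand), was at 15.4, 9.48 and 11.5 FPKM in the strong libraries and at 0.0686, 0 and 0.547 FPKM in the weak libraries. The strong libraries together held 1187 of its reads and the weak ones 17, and its mean was 59.1 times higher (3.45 ± 0.28, adjusted p = 0.00274). The gene stands in an array of 3 annexins, and the annexin D4 gene 940 bases before it (PARG16607), named after its values were seen, had means of 1.12 ± 0.215 and 1.88 ± 0.823 FPKM, short of the threshold (-0.41 ± 0.27, adjusted p = 0.252). An annexin D5 gene (PARG06912, linkage group 2) was lower, at 0.462, 1.03 and 0.274 against 3.65, 4.16 and 1.52 FPKM (-1.33 ± 0.34, adjusted p = 0.0476), and missed the threshold with equal sums (adjusted p = 0.0555), a pseudocount of 0.1 (0.0559), no filter (0.0590) and voom (0.0574). The most abundant annexin, another D5 gene (PARG08598, linkage group 2), was at 104, 94.1 and 122.6 against 62.5, 80.6 and 73.6 FPKM, without overlap between the clones, and did not pass (0.56 ± 0.22, adjusted p = 0.0967).

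Many members lay in arrays of related genes, and how often other genes do so was not examined. When members of a family with at most 50 kilobases between neighbours were joined, 99 of the 166 stood in 28 arrays, and 36 of these 99 passed the filter, against 44 of the 67 outside arrays. Of the calls, 10 fell among the 36 tested members in arrays and 10 among the 44 outside, where 15.3% of all tested genes were called. Several arrays were almost silent in these flowers. The 6 CNGC genes on linkage group 3 (18522169 to 18634794) had means of at most 0.0656 FPKM, and 4 of them had 0 reads. The 5 genes described as GLR1 receptors on linkage group 5 (12740560 to 12819799), a class with pollen tube roles, had means of at most 0.0446 FPKM. In the CNGC array around PARG11782, the 3 other genes had 0 to 5 reads in either clone, so that the array's sum was 6.65, 9.24 and 9.93 FPKM in the strong and 0.112, 0 and 0.254 FPKM in the weak libraries.

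**Figure D4:**
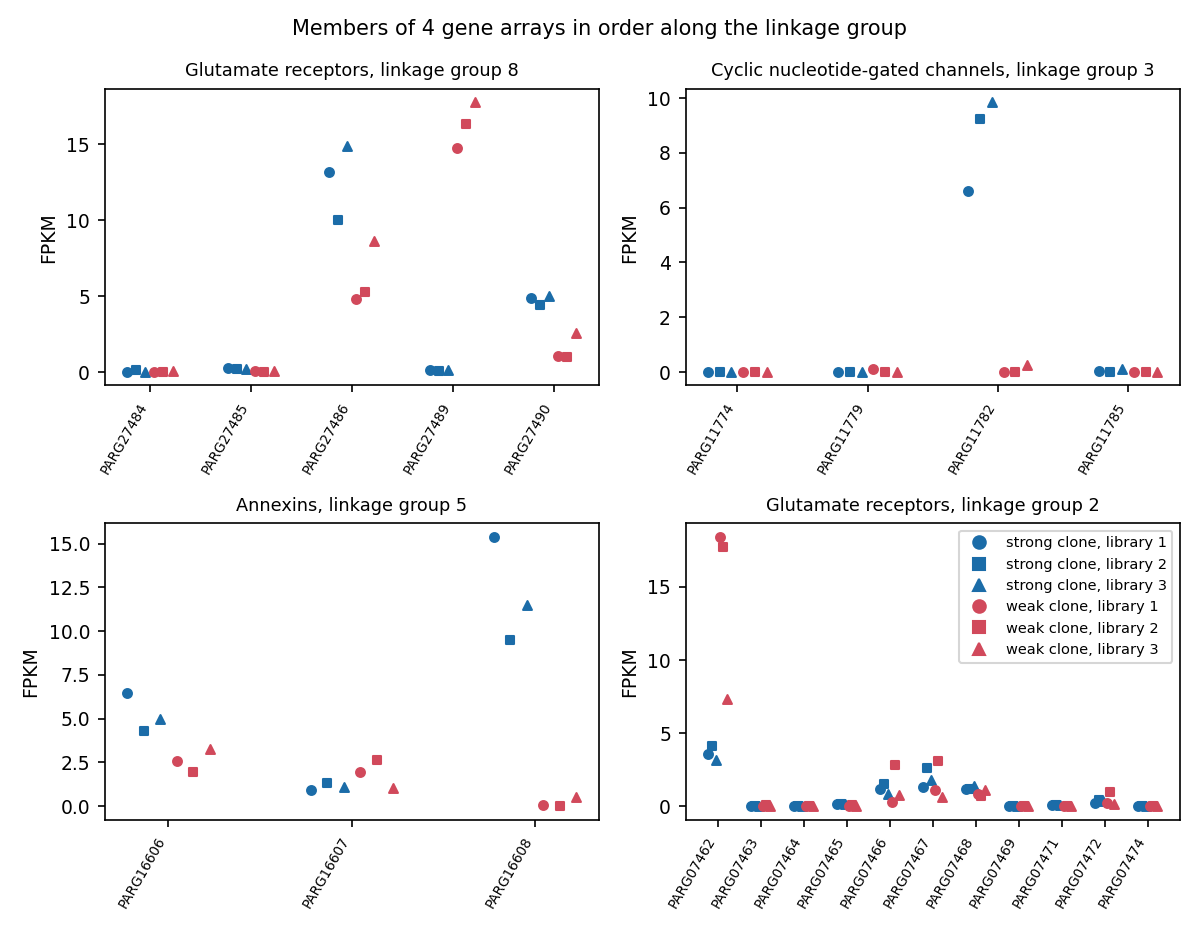
FPKM in every library for the members of 4 arrays, in order along the linkage group, with strong libraries in blue and weak libraries in red. In the glutamate receptor array on linkage group 8 PARG27489 is high in the weak clone where PARG27486 and PARG27490 are higher in the strong clone.

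Weak library 3 separated the called members into patterns. In 11 of the 12 higher members it was the highest of the weak libraries, and in 7 of the 8 lower members the lowest. The exceptions were PARG07792, with 0 reads in every weak library, and PARG27489. Over the 80 members the median size of the log2 difference from the strong mean was 1.08 for weak libraries 1 and 2 together and 0.36 for weak library 3, against 0.96 and 0.32 over all genes. PARG27489, PARG11782, PARG16608 and PARG07792 differed from weak libraries 1 and 2 by -3.90, 3.24, 3.64 and 1.90, and from weak library 3 by -4.08, 2.92, 3.06 and 1.90.

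**Figure D5:**
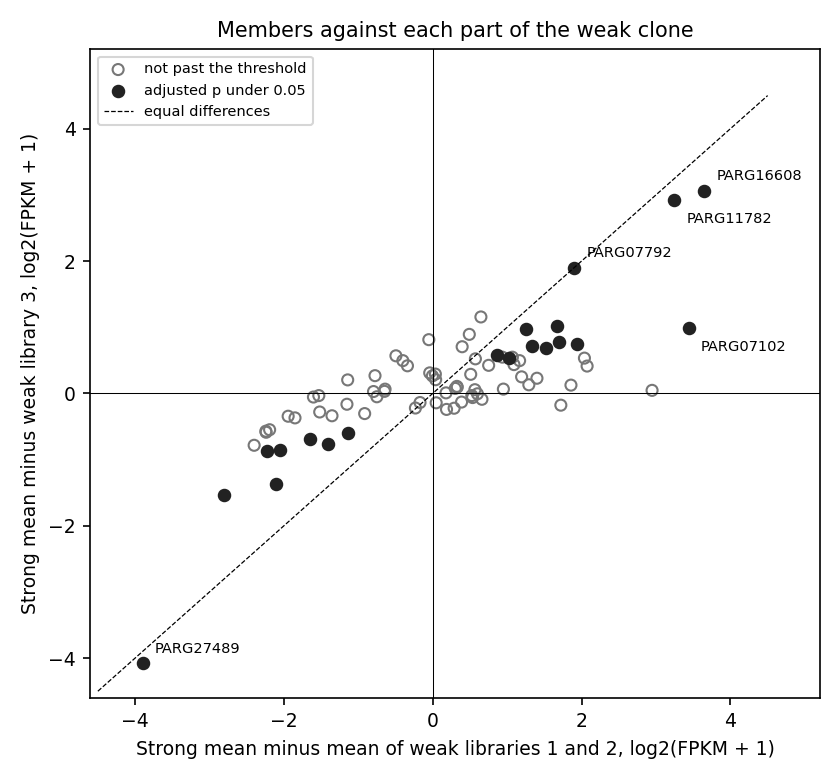
For each tested member, the strong mean minus weak library 3 (vertical) against the strong mean minus the mean of weak libraries 1 and 2 (horizontal), both in log2(FPKM + 1). In 55 of the 80 members weak library 3 is nearer to the strong mean, while PARG27489, PARG11782, PARG16608 and PARG07792 lie near the dashed line of equal differences and MSL8 (PARG07102) lies well below it.

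Other genes of calcium signalling, in lists formed by description without the members, were called in both directions. The called share was 22.0% for sensors and kinases, 26.7% for other calcium transporters and 33.3% for respiratory burst oxidases, against 15.3% of all genes. Of 109 tested genes for calcium sensors, calmodulin-binding proteins and calcium-regulated kinases, 11 rose and 13 fell relative to the weak clone (median -0.46), and with equal sums 15 and 5 (median 0.36). The calls with the smallest adjusted p were a kinesin with a calmodulin-binding site, KIN-14E (PARG19913), at 11.99 ± 0.738 against 0.340 ± 0.403 FPKM (3.32 ± 0.26, adjusted p = 0.00252), and calmodulin-like protein CML2 (PARG13181). The latter had 0 reads in the strong clone and 11.6, 16.2 and 4.67 FPKM in the weak libraries, at least 194-fold lower against the floor of 3 reads over the strong libraries (adjusted p = 0.00786).

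Among 15 other calcium transporters 1 was higher and 3 lower. The vacuolar exchanger CAX3 (PARG29533), which loads calcium into the vacuole, was at 15.0, 18.1 and 15.3 FPKM in the strong and 95.2, 65.2 and 83.7 FPKM in the weak libraries (-2.26 ± 0.21, adjusted p = 0.00436). The cation/calcium exchanger CCX1 (PARG25736) was at 3.77 ± 0.470 against 22.4 ± 6.75 FPKM (-2.26 ± 0.27, adjusted p = 0.00771). Of 6 respiratory burst oxidases, calcium-activated enzymes that make superoxide, RBOHE (PARG27584) was lower, at 2.496 ± 0.160 against 9.25 ± 1.39 FPKM (-1.54 ± 0.20, adjusted p = 0.00918), and RBOHA (PARG23901) higher, at 4.76 ± 2.06 against 1.54 ± 0.259 FPKM (1.12 ± 0.29, adjusted p = 0.0493). The lists' calls also changed with the libraries included, in the way given above for the members.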

How the data were processed

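RNA sequencing of floral organs gave 6 libraries, 3 for each clone, assigned by the group label of each sample and matched to the table's columns by title. The authors deposited FPKM values for 31889 genes with positions, lengths and descriptions. Tools named are CASAVA, RSEM and Bowtie2, per the submitters' processing notes, with no version; the genome build is not given in the sources used here. Values multiplied by gene length fell on steps of 1 read (100% within 0.01 read of a whole number), which gave the read numbers quoted. Replicate pairs differed by more than sampling noise (chi-square per degree of freedom of 10.7 or more), so none was a copy.

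The test covered 16462 genes that reached 1 FPKM in 3 or more libraries. It used limma 3.58.1 (lmFit, eBayes with trend; R 4.3.3) on log2(FPKM + 1) values, two-sided and unpaired, and p-values were adjusted by Benjamini and Hochberg's method and called under 0.05. The scale understates changes of low genes. The procedure was run on simulated reads with the same dispersion for every gene and no deviating library. That run does not bear on the effect of weak library 3. Fold bounds use 3 reads over a clone's libraries. The members, lists and rules were chosen with earlier results of these data known. Values per library are given for all members called, for the most abundant tested member of each family and for PARG11782 and PARG27489; at most 2 called genes are named per other list, those with the smallest adjusted p. Alternatives covered the pseudocount, the filter, scaling, a replicate block, the trend, voom on whole reads, a pollen covariate and leaving out each library. No sequences of these genes were used here.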

Additional observations from a re-analysis of the deposited data

How the results depend on the processing

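For the 20 called members every alternative kept the sign, while the count past the threshold changed. As the clones' libraries do not overlap in these members, the pseudocount, filter, trend, replicate block or a left-out library could not turn it. Rescaling and the pollen covariate could have turned it and did not. As deposited, 20 members were called, 12 higher and 8 lower, with 2520 genes overall. A pseudocount of 0.1 FPKM gave 7 higher members. Equal sums gave 4 lower members. The pollen covariate gave 2 members, 1 higher and 1 lower, and 63 genes, with 0 sensor genes, 0 other transporters and 0 oxidases. Leaving out 1 library gave 4 to 61 members (3 to 35 higher, 1 to 26 lower), 166 to 12075 genes, 2 to 83 sensor genes (24 with all libraries), 1 to 11 other transporters (4 with all) and 0 to 5 oxidases (2 with all), the upper ends all without weak library 3. For the oxidases, the smaller pseudocount, no filter, equal sums, quantile scaling, no trend and voom each gave 1. The median of the members, 0.22, was 0.76 with equal sums, where that of all genes was 0.74, and -0.06 with quantile scaling, where it was 0.01. Higher calls made up 49.2% of the calls over all genes as deposited and 68.2% with equal sums, and 12 of 20 and 13 of 17 among members. The cause of these shifts was not tested.

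With the replicate number as a block, 41 members were called, 22 higher and 19 lower, of 6439 genes, with 55 sensor genes and 8 other transporters. Deviations of same-numbered libraries from their clone means correlated at -0.236, 0.588 and 0.605 for numbers 1, 2 and 3. These values cannot decide whether a number marks a shared tree, batch or day, since deviations within a clone are not independent. The labels do not say either. Strong library 1 correlated best with weak library 3, at 0.303, and strong library 2 with weak library 1, at 0.619.

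Among the genes given per library, signs turned in 4 that did not pass. ERD4 was at 0.73 with equal sums, 0.30 with quantile scaling, 0.06 with the pollen covariate and 0.03 and 0.05 without weak library 1 and 2 (range on leaving out a library, -0.34 to 0.05). GLR3.4 and the TPC gene were at 0.07 and 0.54 with equal sums, and the Piezo gene at -0.09 with quantile scaling and -0.01 with the covariate. Depth limits low members: 1 read of a gene of 1 kilobase is worth up to 0.0965 FPKM, and a gene below the filter is not shown to be absent.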

Other observations

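Below the filter, 4 members were called when every gene with a read was tested. Of these, 3 had reads in both clones: GLR3.2 (PARG20676), a receptor of the same class as GLR3.6, at 0.867, 0.606 and 0.683 FPKM in the strong and 0.0334, 0.0638 and 0.300 FPKM in the weak libraries (log2 difference 0.61 ± 0.12, limma adjusted p = 0.0338), a gene described as CNGC1 (PARG03454, 0.42 ± 0.09, adjusted p = 0.0370) and a further GLR3.6 gene of the array that holds PARG27489 (PARG27485, 0.25 ± 0.06, adjusted p = 0.0457). These 3 were higher in the strong clone. The other, described as ACA12 (PARG03507), had 4 reads over the strong libraries and 0 over the weak ones, and against a floor of 3 reads no higher level is shown. All 4 were named after their values were seen. They rest on few reads, and at these levels the log2(FPKM + 1) scale understates the ratio between the clones.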
